A study of Mus musculus with 6 samples.

Results

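The libraries described here are the 3 control pools of a 6-library RNA sequencing study of mouse embryonic forebrain cells, and they were chosen by their labels alone. The study set cells with a Nestin:Cre transgene and floxed Smad alleles against controls, and the 3 mutant libraries were not used here. The genotype of all controls is given as Smad1wt/fl;Smad5wt/fl with Nestin:Cre0/0, that is, 1 wild-type and 1 floxed copy of both Smad1 and Smad5 and no Cre transgene, so they are not plain wild-type mice. The embryos were taken at E12.5, a day in midgestation, from a mixed background of CD1, 129/ola and C57BL6. Forebrains were dissociated mechanically, stained with a labelled antibody against Prominin1 and sorted. The number of embryos in a pool, their litters and their sex are not given in the sources used here, so the spread between pools may be biological or technical and these cannot be told apart. The sequenced RNAs were picked by the submitters for their integrity. The pools are named SF3, SF4 and SF5_6.

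Radial glia are the bipolar progenitors that line the ventricles of the embryonic brain. They divide at the ventricular surface and give rise to neurons, either directly or through intermediate progenitors. Prominin1 (CD133) is a membrane protein of the apical surface that these cells turn to the ventricle, which is why antibodies to it are used to enrich them. At midgestation the forebrain also holds newborn neurons, the cortical hem and choroid plexus at its dorsal midline, the ventral telencephalon with its GABAergic precursors, meninges, vessels, macrophages and circulating primitive red cells.

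The pools held 34969342 (SF3), 40744672 (SF4) and 32997423 (SF5_6) expected counts, of which 96.4%, 96.2% and 96.3% lay in protein-coding genes (96.3% ± 0.114, SD, n = 3). Of the 52636 genes in the table, 22027 are protein-coding. Levels are given as CPM, the counts of a gene for every 1000000 in its library after TMM scaling over these 3 libraries, as mean ± SD over the 3 pools. CPM is a share of the library and rises with transcript length. A ranking by CPM therefore orders genes by their share of the library, and levels of different genes are compared per kilobase of exon. Spread is given as the coefficient of variation (CV), the SD over the mean. Where a gene was at 0, up to 3 counts remain possible, which is 0.0858, 0.0736 and 0.0909 CPM in these pools before TMM scaling and covers counting error only. In bulk RNA, fewer cells of a type and less RNA per cell cannot be told apart.

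The label of the cells was checked against its markers first. Prom1, the gene of the sort antigen, stood at 107 CPM in SF3, 125 CPM in SF4 and 128 CPM in SF5_6 (120 ± 11.3 CPM, 16.7 CPM per kb). Nes, the intermediate filament nestin of neural progenitors, stood at 386, 463 and 480 CPM (443 ± 49.8 CPM, 69.1 CPM per kb). Pax6, a transcription factor of dorsal forebrain progenitors, stood at 129, 152 and 129 CPM (137 ± 13.5 CPM, 11.7 CPM per kb). All of these were present in every pool, with the pools close to each other. Sox2, which maintains neural progenitors, was the most spread of the 4, at 112, 135 and 172 CPM (140 ± 30.3 CPM, CV 21.7%). Of the 30 radial glia markers, 29 had a mean of at least 1 CPM, against 58.5% of all protein-coding genes, and the other, Lin28a, stood at 3, 0 and 51 counts. All 29 genes listed for young neurons, all 18 for intermediate progenitors and 21 of 23 for mesenchyme and meninges reached this mean too. The count therefore does not set radial glia apart from these cells. No unsorted or Prominin1-negative cells were analysed here, so enrichment by the sort was not measured.

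The promoters of genes on which the description turns are shown with the sequence from 100 bases before to 20 bases after the annotated start, 5′ to 3′ on the gene's strand. Prom1 and Nes are shown as the sort antigen and the classic progenitor marker, Eef1a1 and Tuba1a as the nuclear genes with the highest levels per kilobase, and Hba-x and Hbb-y as the genes of highest CV at a mean of 10 CPM or more. Capitals mark a match on either strand to TATAAA, the core of the TATA box, to CCAAT, the core of the CAT box, or to GGGCGG, the core of the GC box. No matches overlap.
Prom1: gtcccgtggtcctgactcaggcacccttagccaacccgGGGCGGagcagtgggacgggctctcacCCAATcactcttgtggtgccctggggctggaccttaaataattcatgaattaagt
Nes: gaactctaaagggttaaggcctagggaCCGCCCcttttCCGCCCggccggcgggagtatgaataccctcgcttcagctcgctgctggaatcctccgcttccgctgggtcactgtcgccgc
Eef1a1: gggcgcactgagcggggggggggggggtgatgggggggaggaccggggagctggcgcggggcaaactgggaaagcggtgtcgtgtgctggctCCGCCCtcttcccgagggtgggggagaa
Tuba1a: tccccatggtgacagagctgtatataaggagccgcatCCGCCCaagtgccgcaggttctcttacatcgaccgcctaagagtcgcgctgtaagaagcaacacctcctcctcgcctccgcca
Hba-x: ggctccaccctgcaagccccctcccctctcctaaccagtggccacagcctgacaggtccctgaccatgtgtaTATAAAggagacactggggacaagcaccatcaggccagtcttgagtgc
Hbb-y: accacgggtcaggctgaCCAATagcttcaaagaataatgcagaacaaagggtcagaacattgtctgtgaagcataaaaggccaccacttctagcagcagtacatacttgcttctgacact
The sequences are from RefSeq (GRCm38.p6), at chr5:44101717-44101836 on the minus strand for Prom1, which has 2 listed starts of which the first was used, chr3:87970993-87971112 on the plus strand for Nes, chr9:78481705-78481824 on the minus strand for Eef1a1, chr15:98953482-98953601 on the minus strand for Tuba1a, chr11:32276500-32276619 on the plus strand for Hba-x and chr7:103853188-103853307 on the minus strand for Hbb-y. In the same 120-base window, 6.46% of the 27025 listed promoters held TATAAA, while 21.5% of them held CCAAT and 27.2% of them held GGGCGG, so each of these strings is also found in many promoters of other genes. Nes holds 2 matches to the GC box, Eef1a1 and Tuba1a hold 1 each, and in Prom1 GGGCGG stands before CCAAT. Hba-x, an embryonic alpha-like globin, holds TATAAA, and Hbb-y, an embryonic beta-like globin, holds CCAAT. A match is a description of the letters and not a binding site.

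Transcripts of 17156 of the 22027 protein-coding genes were counted in at least 1 pool, and 4871 genes were at 0 in every pool. In every pool, 12460 genes reached 1 CPM. Taken singly, SF3 had 12852 such genes, SF4 12653 and SF5_6 13038. The distribution was steep at its lower end. A mean under 0.1 CPM was found for 6945 genes (31.5%), which together held 0.00749% of protein-coding CPM, and a mean of 0.1 to 1 CPM for 2192 genes (9.95%) with 0.0935%. The 3175 genes at 1 to 10 CPM held 1.44%. Most of the signal lay in the middle classes, with 30.3% in the 7205 genes at 10 to 100 CPM and 57.3% in the 2455 genes at 100 to 1000 CPM. Only 55 genes (0.25%) reached 1000 CPM, and they held 10.8%. Just above that line stood Stmn1 (1016 CPM), a tubulin-binding protein, and Sbk1 (1010 CPM), a kinase, and just below it Ywhae (989 CPM), a 14-3-3 protein, and Son (967 CPM), a splicing cofactor.

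The libraries were not dominated by a few transcripts. It took 1193 genes to reach 50% of protein-coding CPM by the mean, and 1159, 1161 and 1240 genes in SF3, SF4 and SF5_6. The first 5908 genes held 90%. The top gene alone held 0.943%, the top 20 held 6.20%, the top 100 held 14.7% and the top 1000 held 46.2%. Ranked within each pool, its own top 20 held 6.45% in SF3, 6.21% in SF4 and 6.00% in SF5_6.

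**Figure D1:**
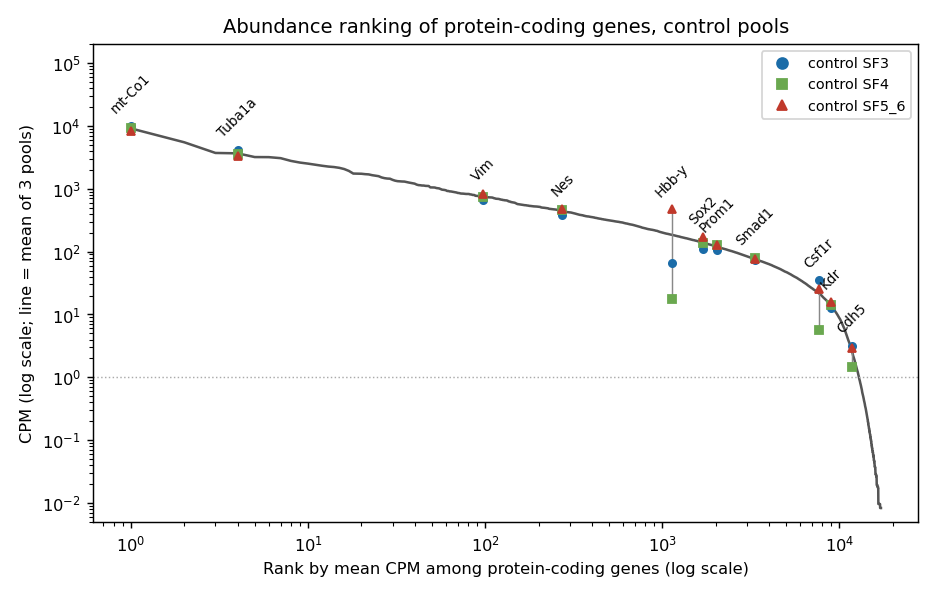
Abundance ranking of protein-coding genes in the control pools. The x axis is the rank by mean CPM and the y axis is CPM, both on log scales; the line is the mean of the 3 pools, symbols give the single pools for named genes and the dotted line marks 1 CPM. The curve falls gently down to about 10 CPM and steeply below 1 CPM, and the pools lie together for Prom1 (107 to 128 CPM) but far apart for Hbb-y (17.3 to 471 CPM).

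The top of the CPM ranking was made up largely of mitochondrial messages, translation factors and cytoskeletal genes. mt-Co1, a subunit of cytochrome c oxidase, took the largest share of any protein-coding gene, at 9855 CPM in SF3, 9072 CPM in SF4 and 8329 CPM in SF5_6 (9085 ± 763 CPM). Eef1a1, which brings aminoacyl-tRNA to the ribosome, followed at 5589, 5556 and 5268 CPM (5471 ± 177 CPM). Tuba1a, the main alpha-tubulin of young neurons, stood at 4162, 3528 and 3260 CPM (3650 ± 463 CPM). Of the top 20, 5 were encoded by the mitochondrial genome (mt-Co1, mt-Cytb, mt-Nd4, mt-Nd1 and mt-Nd5), and 3 were translation factors (Eef1a1, Eef2 and Eif4g2). Tubulin, actin and microtubule-binding genes gave 5 more (Tuba1a, Tubb5, Actg1, Actb and Map1b).

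The top 20 held 2 transcription factors. Sox11, a factor of newborn neurons, stood at 3598, 3306 and 2651 CPM (3185 ± 485 CPM). Nfib, a nuclear factor I protein that promotes differentiation of cortical progenitors, stood at 2632, 2518 and 1293 CPM (2148 ± 742 CPM). SF5_6 was the lowest pool for both, and for Nfib it stood well apart, so that it ranked 10 and 11 in SF3 and SF4 but 29 in SF5_6. The remaining places went to the chaperones Hsp90ab1 and Hspa8, the ubiquitin ligase Nedd4, the acidic nuclear protein Ptma and the receptor phosphatase Ptprs. Of the genes in any pool's top 20, which numbered 24, 16 were in the top 20 of all 3 pools.

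**Figure D2:**
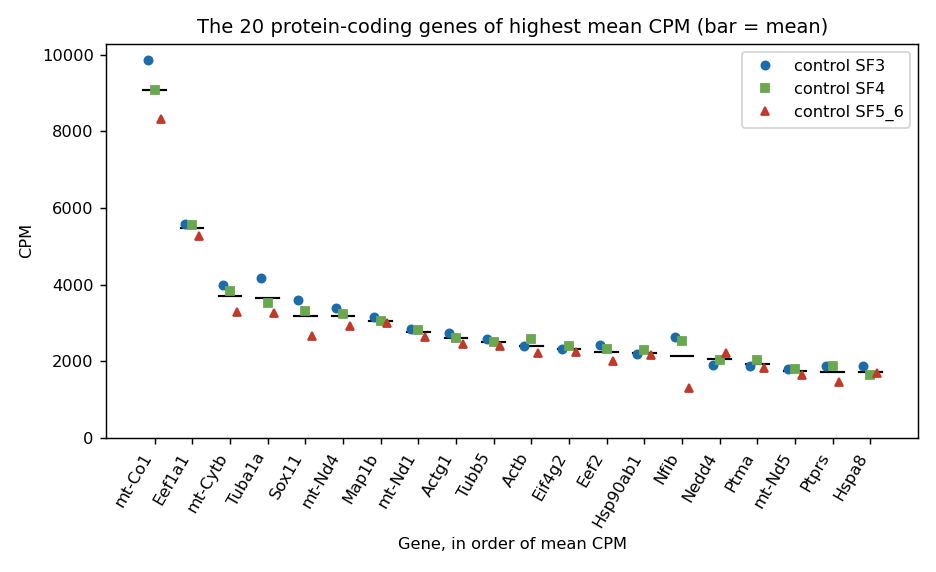
CPM of the 20 protein-coding genes of highest mean CPM, in order of the mean, with 1 symbol per pool and a bar at the mean. mt-Co1 lies above the others in every pool (8329 to 9855 CPM), and Nfib has the highest CV of the 20 (34.6%), with SF5_6 at 1293 CPM.

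Per kilobase of exon, shorter transcripts took the first places. The median exon length, counted as the union of all exons, was 5012 bases in the top 100 by CPM and 1871.5 bases in the top 100 per kilobase, beside 4706 bases over all that reached a mean of 1 CPM. The rankings shared 13 of their first 20 genes. mt-Co1 led again (5880 CPM per kb), followed by mt-Cytb (3236), mt-Nd1 (2893) and mt-Atp8 (2682 CPM per kb). The highest nuclear genes were Eef1a1 (2195), Tuba1a (2024), Ptma (1311) and Actg1 (979 CPM per kb). Genes that entered only by length included Ftl1, the ferritin light chain (675), Nnat, the imprinted membrane protein neuronatin (658), and Marcksl1, an actin-binding kinase substrate (639 CPM per kb). The top 20 held 14.3% of the per-kilobase sum, and the mitochondrial messages alone held 9.17%, without the counts assigned to the nuclear copies described below.

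The low places of 3 mitochondrial genes in this ranking are not interpretable as levels. mt-Atp6 (123 ± 18.3 CPM, 180 CPM per kb), mt-Co3 (87.2 ± 39.2 CPM, 111 CPM per kb) and mt-Co2 (80.0 ± 18.2 CPM, 117 CPM per kb) stood far under the 5880 CPM per kb of mt-Co1. Nuclear copies of these genes lie on chromosome 1 of GRCm38 between 24613189 and 24615565. Over 678 aligned bases Gm10925 had 100% identity to mt-Atp6, as had Gm28437 to mt-Co3 over 783 bases and Gm28661 to mt-Co2 over 681 bases. The copies carried 3648 ± 283, 3398 ± 281 and 3376 ± 205 CPM. Reads of an identical sequence cannot be assigned to one or the other, so only the sums are firm. Gm10925 with mt-Atp6 summed to 3771 CPM, Gm28437 with mt-Co3 to 3485 CPM and Gm28661 with mt-Co2 to 3456 CPM. Each set singly against the protein-coding genes, these sums would rank 3, 5 and 5 by CPM. The mitochondrial places and shares given above, in both rankings, leave out the counts of the copies. Summed, the CV was 7.79%, 8.66% and 6.47%, against 14.9%, 44.9% and 22.7% for the mitochondrial gene alone. Only these 3 copies were compared, and copies of other mitochondrial genes were not looked for. Among those others mt-Nd3 was low as well, at 38.2 ± 13.7 CPM (110 CPM per kb, CV 35.8%).

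The gene groups that serve all growing cells were high and close between pools. All 83 cytosolic ribosomal protein genes whose mean reached 1 CPM, of 86 in the table, had a CV under 25%, a spread reached or passed by 14.5% of the 12890 protein-coding genes with that mean. Their median level was 297 CPM (157 CPM per kb) and their median CV 3.82%, against 8.21% for all 12890 genes. Among genes at 100 to 1000 CPM the median CV was 5.78%, and 4.03% had a CV of 25% or more. Ribosomal protein genes have many near-identical pseudogenes, so single values are uncertain. Rpsa, of the small subunit, was at 770, 786 and 747 CPM (767 ± 19.5 CPM), and Rpl4, of the large subunit, at 750, 769 and 713 CPM (744 ± 28.6 CPM).

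Translation factors had a median of 409 CPM and a median CV of 3.32%, with 1 of 19 at a CV of 25% or more. That gene was Eef1a2, the neuronal and muscle form of the elongation factor, at 13.9, 8.71 and 7.28 CPM, and without SF3 no member passed. Of 45 RNA-binding and splicing genes (median 457 CPM, median CV 4.85%), 2 passed a CV of 25%, the neuronal Elavl2 and Nova1, and without SF5_6 none did. Hnrnpa1, a packaging protein of nuclear RNA, was the highest of this list by count share at 1655, 1779 and 1631 CPM (1688 ± 79.1 CPM). The 26 chaperone genes at 1 CPM or more had a median of 293 CPM and a median CV of 5.06%, with none at 25% or more (1 without SF5_6). The 22 cytoskeletal genes had a median of 940 CPM and 332 CPM per kb, the highest median of the nuclear lists on both scales, and none reached a CV of 25% (3 without SF4, 1 without SF5_6). Glycolysis and hypoxia genes, 25 of 27 at 1 CPM or more, had a median of 79.1 CPM and a median CV of 6.52%. Gapdh stood at 1200, 1325 and 1238 CPM, while Aldoc, an aldolase of brain, was with the lactate transporter Slc16a3 the list's gene with a CV of 25% or more, at 99.1, 112 and 42.3 CPM. Without SF5_6 no member passed. Over all 12890 genes a CV of 25% or more was found for 14.5%. It was found for 7.47% of those at 10 to 100 CPM and 4.03% of those at 100 to 1000 CPM. Without SF5_6 the share of all genes was 5.64%. The counts of these lists are near the shares at their levels.

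Chromatin genes were high as well. The 51 chromatin and high mobility group genes had a median of 324 CPM and a median CV of 6.65%, led by the nucleosome remodeller Chd4 at 1038, 1110 and 993 CPM (1047 ± 59.0 CPM). Hmga2, a high mobility group protein of early progenitors that is also on the radial glia list, was their sole gene with a CV of 25% or more. It stood at 40.5 CPM in SF3, 55.7 CPM in SF4 and 179 CPM in SF5_6 (91.8 ± 76.0 CPM). SF5_6 was thus far above the other pools for it, and without SF5_6 no chromatin gene passed (3 did without SF3 and 2 without SF4). Of all genes 14.5% had such a CV, and 4.03% of those at 100 to 1000 CPM. Without SF5_6 the share of all genes was 5.64%. Replication-dependent histones, whose messages mostly end in a stem-loop in place of a poly(A) tail, were scarce in these mRNA libraries. Only 16 of 67 reached a mean of 1 CPM, with a median of 0.38 CPM over the list, and the highest by mean was Hist3h2ba at 58.9, 52.3 and 41.02 CPM. Of these 16, Hist1h2ap, Hist2h2aa2 and Hist1h2be had a CV of 25% or more, and 5 members did without SF3 and 6 without SF4. That is near the 14.5% of all genes, and such a CV was found for 38.6% of genes at 1 to 10 CPM. Many histone genes are near-identical copies, so their single counts are uncertain.

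Genes of the cell cycle were present throughout. All 25 S-phase genes and all 25 genes of G2 and mitosis were at 1 CPM or more, with medians of 71.4 and 93.5 CPM, and none had a CV of 25% or more. Of all genes 14.5% had such a CV, and 7.47% of those at 10 to 100 CPM. Mki67, a protein of the surface of mitotic chromosomes, stood at 673, 791 and 803 CPM (756 ± 71.7 CPM). Top2a, the topoisomerase of dividing cells, stood at 418, 515 and 557 CPM (497 ± 71.1 CPM). SF3 was the lowest pool for both. No member of the S-phase or mitosis list was highest in SF3, against 36.2% of all 12890 genes, and their summed level was 2236 and 3291 CPM in SF3, 2637 and 4062 CPM in SF4 and 2671 and 4153 CPM in SF5_6.

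Radial glia genes had a median of 131 CPM (26.2 CPM per kb) and a median CV of 12.01%. Lhx2, which specifies cortex, stood at 746, 842 and 713 CPM (767 ± 67.1 CPM). Vim, the filament vimentin, stood at 669, 734 and 826 CPM (743 ± 78.7 CPM). Cdh2, the N-cadherin of apical junctions, differed least among the leading markers, at 505, 524 and 512 CPM (CV 1.93%). The summed level of the list was 6116 CPM in SF3, 6767 CPM in SF4 and 6268 CPM in SF5_6, so the pools lay within 1.11-fold of each other. Of the 29 genes, 4 had a CV of 25% or more, near the 14.5% of all genes, among them Hmga2, Lin28b, an RNA-binding protein of early progenitors (7.16, 6.38 and 21.9 CPM), and Mt1, a metallothionein (10.2, 7.88 and 5.07 CPM). Without SF5_6 no radial glia gene passed this CV, beside 5.64% of all genes, and without SF4 7 did.

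The Notch pathway, which keeps radial glia undifferentiated through contact between neighbouring cells, was measured from ligand to target. The receptors Notch1 (302, 359 and 308 CPM) and Notch2 (199, 253 and 255 CPM) were present beside the ligand Dll1 (196, 237 and 231 CPM) and the nuclear effector Rbpj (219, 218 and 191 CPM). All 22 genes of the list reached 1 CPM, at a median of 63.1 CPM and a median CV of 10.4%. The 3 of 22 with a CV of 25% or more, a share near the 14.5% of all genes, were the ligands Jag1 (14.6, 16.7 and 30.7 CPM) and Jag2 (14.1, 13.7 and 23.4 CPM) and the target Heyl (2.24, 1.25 and 3.06 CPM).

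Genes of bone morphogenetic protein signalling, the pathway to which the floxed genes belong, ranged from members steady between pools to widely spread ones. The receptor Bmpr2 stood at 304, 294 and 286 CPM (295 ± 9.18 CPM). Smad5 stood at 291, 303 and 285 CPM (293 ± 9.46 CPM, 39.5 CPM per kb) and Smad1 at 73.2, 78.7 and 75.5 CPM (75.8 ± 2.78 CPM, 12.1 CPM per kb). These mediators differed by under 4% CV between pools. The target Id3, an inhibitor of basic helix-loop-helix factors, stood at 13.7, 14.7 and 51.8 CPM and the ligand Bmp4 at 3.90, 3.61 and 10.9 CPM, with SF5_6 high for both. Id4, the list's highest member by mean, was less spread and highest in SF4, at 325, 434 and 368 CPM (CV 14.7%). Of 27 genes at 1 CPM or more, 12 had a CV of 25% or more, against the 14.5% of all genes, and 18 were highest in SF5_6, as were 34.3% of all genes. Without SF5_6 only 1 of the 27 passed, near the 5.64% of all genes.

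Transcripts of cells further along the neuronal path were abundant in the sorted pools. All 18 genes of intermediate progenitors and all 29 genes of young neurons reached 1 CPM, with medians of 131 and 239 CPM (56.5 and 53.1 CPM per kb). These medians per kilobase were above the 26.2 CPM per kb of the radial glia list, and how much of this lay in neurons and how much in radial glia was not tested. Sox4, a partner of Sox11, stood at 1666, 1594 and 1066 CPM, and Dcx, the microtubule-binding doublecortin of migrating neurons, at 1504, 1238 and 927 CPM (1223 ± 288 CPM). Eomes (Tbr2), the defining factor of intermediate progenitors, stood at 625, 657 and 393 CPM (559 ± 144 CPM). SF5_6 was lowest for each of them.

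Young neuron genes had their lowest sum in SF5_6, and most but not all members were lowest there. They summed to 19767 CPM in SF3, 17572 CPM in SF4 and 13230 CPM in SF5_6, and 26 of 29 were highest in SF3, as were 36.2% of all genes, with 3 highest in SF5_6. Those 3 were Ina, Nefm and Nefl. They and Tubb3 (957, 853 and 909 CPM), Map2 (1204, 1041 and 1074 CPM), Stmn2 and Syt1, chosen after their values were seen, were lowest in SF4. With library totals alone 23 were highest in SF3. Among the widest was Sox5, a factor of deep-layer cortical neurons, at 345, 267 and 104 CPM (CV 51.6%). The basic helix-loop-helix factors Neurod6 (677, 543 and 210 CPM) and Neurod2 (597, 511 and 231 CPM), chosen after their values were seen, had the same order. In all, 10 of the 29 genes had a CV of 25% or more, against 14.5% of all genes, and 15 did without SF4 but 1 without SF5_6. Without SF5_6 the share of all genes was 5.64%. Intermediate progenitor genes summed to 3190, 3327 and 2526 CPM and 3 of 18 passed that CV, near the 14.5% of all genes, namely Eomes, the somatostatin receptor Sstr2 (162, 155 and 67.1 CPM) and the calmodulin-binding Pcp4 (18.4, 17.2 and 8.12 CPM). No member passed without SF5_6, 5 without SF3 and 6 without SF4.

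Most genes of other forebrain regions were highest in SF5_6. The ventral telencephalon list, 22 of 25 at 1 CPM or more, had a median of 10.8 CPM (2.81 CPM per kb), and 18 of the 22 were highest in SF5_6 with none highest in SF4, against 34.3% and 29.6% of all genes (SF5_6 51.5% with library totals alone). Nkx2-1, which specifies the medial ganglionic eminence and the hypothalamus, stood at 5.21 CPM in SF3, 0.40 CPM in SF4 and 26.8 CPM in SF5_6. Dlx2, a factor of GABAergic precursors, stood at 15.3, 5.65 and 44.8 CPM, its neighbour Dlx1 at 17.0, 7.605 and 53.4 CPM, and Gad2, which makes GABA, at 12.6, 7.38 and 37.0 CPM. For all of these SF4 was the lowest pool and SF5_6 the highest. Of the 22, 18 had a CV of 25% or more, against 14.5% of all genes and 38.6% of those at 1 to 10 CPM. Without SF5_6, 12 of 20 still did, against 5.64% of all genes. The list is not uniform, since Meis2, its highest member by mean, stood at 321, 307 and 197 CPM and so was lowest in SF5_6. In all, 4 of the 22 were highest in SF3. Lhx6 (12.2, 5.09 and 4.28 CPM) and Sst (6.11, 3.29 and 2.36 CPM), chosen after their values were seen, were among them. The list summed to 878, 836 and 1258 CPM, of which Zic1 alone gave 146, 149 and 330 CPM.

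The list of cortical hem and choroid plexus, signalling and secretory tissue of the dorsal midline, had 18 of 19 genes highest in SF5_6, against 34.3% of all genes. It summed to 620, 791 and 1327 CPM. The hem ligand Wnt8b stood at 42.8, 58.5 and 141 CPM, and Rspo3, a Wnt enhancer, at 75.6, 99.2 and 161 CPM. Ttr, the transthyretin secreted by choroid plexus, was less spread at 147, 171 and 208 CPM (CV 17.5%). With all pools, 16 of 19 genes had a CV of 25% or more, against 14.5% of all genes. Without SF5_6, 5 did, against 5.64% of all genes. Markers of diencephalon, midbrain and eye had a median of 1.55 CPM (0.31 CPM per kb), with 12 of 21 at 1 CPM or more and 11 of the 12 highest in SF5_6. Tcf7l2, a Wnt effector of the thalamus, stood at 9.84, 11.2 and 65.4 CPM. The midbrain and hindbrain genes En1 and En2 and the pigment cell gene Tyr were at or under 2 counts in every pool. For this list 9 of 12 genes had a CV of 25% or more, beside 38.6% of all genes at 1 to 10 CPM, and 2 of 7 without SF5_6. Genes of Cajal-Retzius and preplate cells summed to 1209, 1179 and 1148 CPM. This near-equal sum hid opposite members, since Reln, the secreted reelin, stood at 886, 808 and 562 CPM while 9 of 11 genes were highest in SF5_6, such as Ebf2 at 35.8, 46.8 and 104 CPM. Of those 11 genes 9 had a CV of 25% or more, and 2 without SF5_6.

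Markers of cells from outside the neural lineage were detected in every pool, some of them at high counts. The list of mesenchyme, meninges and pericytes summed to 1300, 1110 and 2033 CPM, with 19 of 21 genes highest in SF5_6. A CV of 25% or more was found for 13 of the 21 (10 of 20 without SF5_6, against 5.64% of all genes). Over all 12890 genes 34.3% were highest in SF5_6 (51.5% with library totals alone). Such a CV was found for 14.5% of all genes and 38.6% of those at 1 to 10 CPM. Col3a1, a fibrillar collagen, stood at 246, 168 and 433 CPM. The list's largest member by mean, the matrix protein Fn1, stood at 376, 441 and 598 CPM. Endothelial genes summed to 95.3, 101 and 121 CPM, most of it in the glucose transporter Slc2a1 and the lipid transporter Mfsd2a. The vascular receptor Kdr stood at 12.49, 13.95 and 16.0 CPM and the junction protein Cdh5 at 3.14, 1.46 and 2.94 CPM. Only 7 of 16 endothelial genes reached 1 CPM and 2, Cdh5 and the receptor Eng (2.15, 1.31 and 2.68 CPM), had a CV of 25% or more.

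Macrophage genes were lowest in SF4. They summed to 209 CPM in SF3, 40.7 CPM in SF4 and 152 CPM in SF5_6. The mannose receptor Mrc1 stood at 71.5, 11.1 and 46.3 CPM, the growth factor receptor Csf1r at 34.8, 5.77 and 25.2 CPM and the chemokine receptor Cx3cr1 at 15.8, 2.01 and 13.8 CPM. Of the 17 genes at 1 CPM or more, 14 were highest in SF3 and none in SF4. A CV of 25% or more was found for 16, with 15 of 16 left without SF5_6 and 11 of 19 without SF4. Without SF5_6 the share of all genes was 5.64%. Over all 12890 genes 36.2% were highest in SF3, 29.6% in SF4 and 34.3% in SF5_6. Such a CV was found for 14.5% of all genes and 38.6% of those at 1 to 10 CPM. Erythroid genes were lowest in SF4 too but highest in SF5_6, at 382, 119 and 1122 CPM summed, and all 10 genes at 1 CPM or more had a CV of 25% or more (8 of 8 without SF5_6). Of the 10, 8 were highest in SF5_6 and 2 in SF3, the adult beta-globins Hbb-bs (78.7, 25.8 and 32.5 CPM) and Hbb-bt (36.1, 11.997 and 34.9 CPM), which are near-identical. With library totals alone 1 of the 10 was highest in SF3. Genes of neural crest, glia and sensory neurons summed to 38.0, 40.1 and 51.6 CPM, with 6 of 17 at 1 CPM or more and 3 of them, Olig2, Prph and Pou4f1, at a CV of 25% or more (none of 6 without SF5_6). Most of that was Mbp, at 21.6, 23.6 and 25.8 CPM, while the glial genes S100b and Gfap were at or under 2 counts in each pool. Epithelial genes summed to 6.61, 6.88 and 15.2 CPM. Only 4 of 12 reached 1 CPM, led by Epcam at 2.01, 2.33 and 4.13 CPM, and those 4 had a CV of 25% or more (none of 3 without SF5_6). The keratins Krt5 and Krt14 and the splicing factor Esrp1 were at or under 2 counts.

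**Figure D3:**
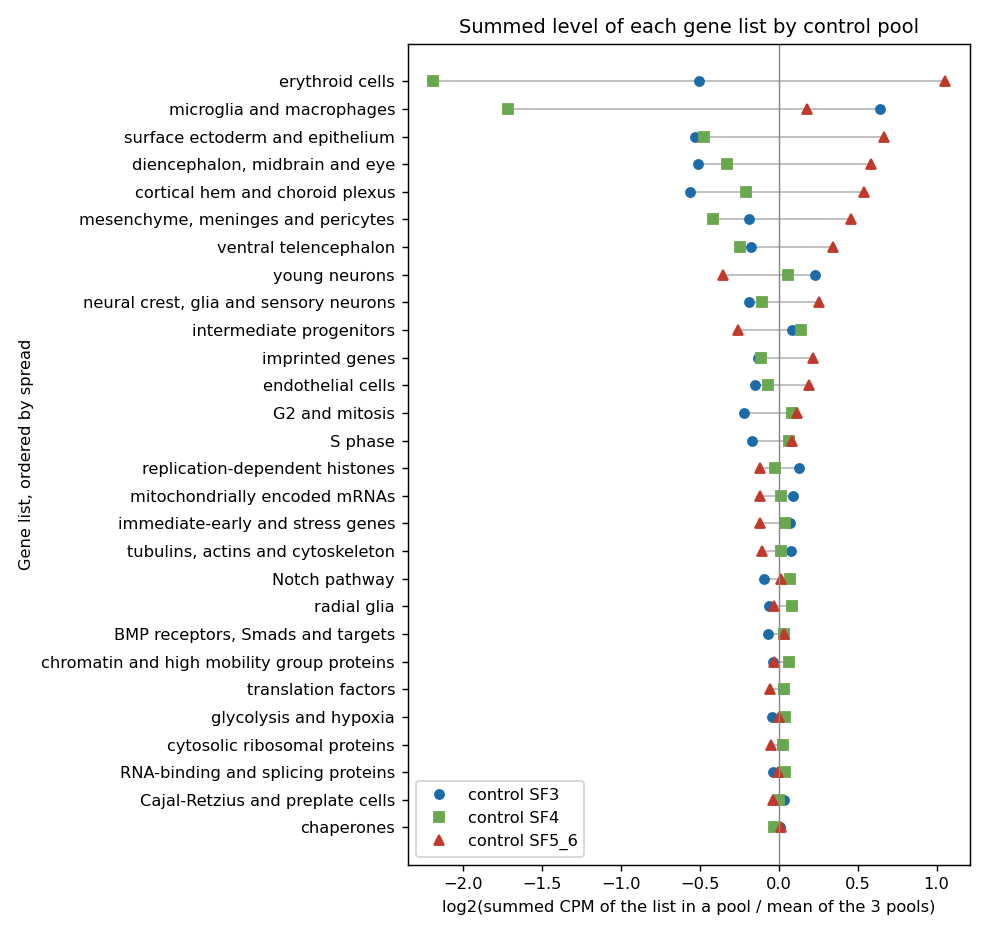
Summed level of each gene list by pool, as the log2 of its summed CPM over the mean of the 3 pools, ordered by spread. Erythroid and macrophage genes are widest, region lists lie to the right for SF5_6 and young neuron genes to the left, and housekeeping lists such as chaperones sit close to 0.

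The spread between pools was small for most genes. Over the 12890 protein-coding genes whose mean reached 1 CPM the median CV was 8.21% (quartiles 4.54% and 16.0%), and the common biological coefficient of variation from edgeR was 0.187. A CV under 5% was found for 3683 genes (28.6%), and 1672 (13.0%) had a CV below what Poisson counting alone gives. The CV was 25% or more for 1865 genes (14.5%), 50% or more for 542 and 100% or more for 41. Without SF5_6, 720 of the 12760 genes at that mean (5.64%) had a CV of 25% or more and the common coefficient was 0.109. Spread depended on abundance. The median CV was 18.9% at 1 to 10 CPM, where Poisson counting gives 8.66%, 7.01% at 10 to 100 CPM (2.84%), 5.78% at 100 to 1000 CPM (1.28%) and 6.06% at 1000 CPM or more (0.436%). In each of these classes the median CV was thus above what counting gives. In these classes 38.6%, 7.47%, 4.03% and 3.64% of the genes had a CV of 25% or more, the last being 2 of 55 genes. The 14.5% set beside the list counts is over all classes, so it is not matched to the abundance of a list. It is also over all 3 pools, and list counts without SF5_6 belong beside the 5.64%.

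**Figure D4:**
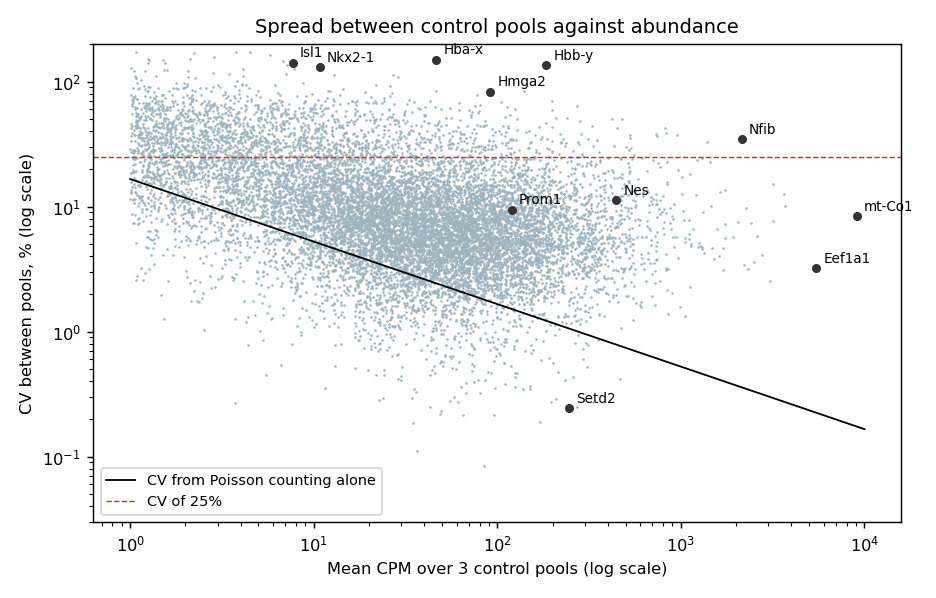
CV between the 3 control pools against mean CPM, both on log scales, for 12890 protein-coding genes. The solid line is the CV that Poisson counting alone gives and the dashed line marks 25%; most genes lie above the first and below the second, and the globins Hba-x and Hbb-y, Nkx2-1 and Hmga2 lie far above.

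SF5_6 was the pool that stood apart most often. The median absolute log2 difference across genes was 0.098 between SF3 and SF4, 0.17 between SF3 and SF5_6 and 0.14 between SF4 and SF5_6. Across genes, which are not independent replicates, Pearson correlations of the log2 levels were 0.991, 0.978 and 0.980 and Spearman correlations 0.995, 0.982 and 0.986. At least 2-fold differences were found for 173 genes higher in SF3 than SF4 and 7 the other way. Against SF5_6, 325 genes were at least 2-fold higher in it than in SF3 and 230 lower, and 464 were higher in it than in SF4 and 123 lower. Among all genes SF3 held the highest value for 36.2%, SF4 for 29.6% and SF5_6 for 34.3%, a split that depends on the scaling, since SF5_6 held it for 51.5% with library totals alone. Among the 1865 genes with a CV of 25% or more, SF5_6 was highest for 1147 (61.5%), SF3 for 628 (33.7%) and SF4 for 90 (4.83%). SF5_6 was the pool farthest from the others for 1314 of them (70.5%), against 51.4% of all 12890 genes. The pools differed by far more than counting noise, with a chi-square per degree of freedom of 12.8 for SF3 and SF4, 43.9 for SF3 and SF5_6 and 34.9 for SF4 and SF5_6, so no pool repeats the library of another.

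The genes of widest spread at a mean of 10 CPM or more fell into few kinds. Globins of red cells led. Hba-x stood at 9.72 CPM in SF3, 3.14 CPM in SF4 and 126 CPM in SF5_6 (CV 149%). Hbb-y stood at 66.0, 17.3 and 471 CPM (CV 135%). The alpha-globin copies Hba-a1 (116, 35.2 and 266 CPM) and Hba-a2 (68.0, 22.3 and 142 CPM) had the same order, but they are near-identical, so the division of reads between them is uncertain. SF4 was the lowest pool and SF5_6 the highest for all of these. The difference between pools was wider for the embryonic globins Hba-x and Hbb-y than for the alpha-globins.

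Patterning genes of ventral forebrain and diencephalon were the next kind, with Nkx2-1, Six3 (5.53, 3.59 and 29.5 CPM), Tcf7l2, Dlx1, Dlx2 and Gad2 among the 20 widest. Developmental genes higher in SF5_6 were Dlk1, an imprinted Notch-like membrane protein, at 11.6, 7.45 and 61.8 CPM, Fzd10, a Wnt receptor, at 5.21, 7.13 and 23.4 CPM, and Lrp2, an endocytic receptor of neuroepithelium, at 11.5, 11.6 and 38.1 CPM. The same held for Hmga2 and Id3, and for Zfhx3, a homeodomain factor of neuronal differentiation, at 24.8, 23.2 and 90.8 CPM, and Thsd7a at 6.08, 6.68 and 24.2 CPM. In 17 of these 20 genes SF5_6 was the highest pool, against 61.5% of the 1865 genes with a CV of 25% or more. The exceptions were Nos1, neuronal nitric oxide synthase, at 45.7, 26.6 and 5.97 CPM, Lyve1, a receptor of macrophages and lymphatic vessels, at 25.03, 3.51 and 13.0 CPM, and Gm10020 at 22.1, 0 and 21.2 CPM. Gm10020 was counted 760 times in SF3 and 727 times in SF5_6 but never in SF4.

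**Figure D5:**
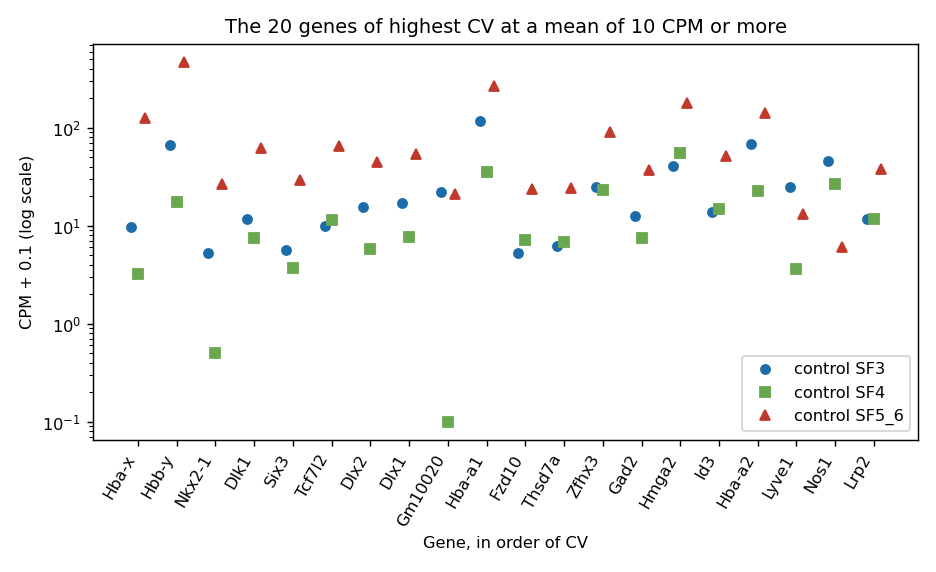
CPM + 0.1 on a log scale in each pool for the 20 genes of highest CV at a mean of 10 CPM or more, in order of CV. SF5_6 is the highest pool for most of them, and SF4 is lowest for the globins, Nkx2-1 and Lyve1 and at 0 for Gm10020.

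At the other end, the 10 genes of lowest CV at a mean of 10 CPM or more lay at about 0.25% or below. Setd2, a histone H3 methyltransferase, stood at 245.0, 246 and 245 CPM, Azin1, an antizyme inhibitor, at 172, 172 and 172 CPM, and Usp42, a deubiquitinase, at 85.2, 85.1 and 85.1 CPM. Ift52 of the cilium, Pnpla6, Ei24, Strn, Ttc4, Lemd3 and Pias4 made up the rest. These values are under the CV that counting alone gives. With 3 pools and the 9715 genes of that mean, such close triples are to be read as the lower end of the distribution and not as exact constancy.

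Sex-linked transcripts differed between the pools too. Kdm5d, a Y-linked histone demethylase, stood at 47.2 CPM in SF3, 19.5 CPM in SF4 and 37.8 CPM in SF5_6, and Eif2s3y, a Y-linked initiation factor subunit, at 41.1, 15.5 and 30.9 CPM. Ddx3y and Uty had the same order. All 4 were lowest in SF4 and highest in SF3, and without SF4 none had a CV of 25% or more. Xist, the RNA that coats the inactive X chromosome, was highest in SF4, at 1548, 3009 and 2195 CPM. The other Y-linked list genes, Zfy1, Zfy2 and Usp9y, were at 0 in every pool. The X chromosome itself was not wider than the rest, with 57 of 452 genes (12.6%) at a CV of 25% or more. The autosomes ranged from 11.1% (chromosome 17) to 16.9% (chromosome 13).

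Imprinted genes, expressed from 1 parental copy and many of them regulators of embryonic growth, summed to 4282, 4342 and 5455 CPM, and 14 of the 18 at 1 CPM or more were highest in SF5_6, as were 34.3% of all genes (51.5% with library totals alone). Nnat stood at 1122, 1113 and 1374 CPM and Grb10, an adaptor that restrains growth factor signalling, at 641, 739 and 806 CPM. Gnas, a G-protein subunit, was close between pools at 885, 881 and 914 CPM. Peg10, a gene derived from a retrotransposon, stood at 62.6, 62.8 and 188 CPM, and Mest, chosen after its values were seen, at 172, 169 and 470 CPM. With all pools 6 of the 18 had a CV of 25% or more, against 14.5% of all genes. Without SF5_6, 2 did, against 5.64% of all genes. Immediate-early and stress genes, which many stimuli induce quickly, had a median of 3.67 CPM and summed to 839, 822 and 735 CPM. Their median CV was 12.45%, with Zfp36, Gadd45b and Klf2 at 25% or more of the 20 that reached 1 CPM, a share near the 14.5% of all genes. Jund stood at 192, 189 and 176 CPM and Jun at 92.5, 96.7 and 71.3 CPM.

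SF5_6 thus held higher summed levels of the ventral, hem, mesenchymal, erythroid and imprinted lists beside a lower summed level of the young neuron list. The part of dissection, embryo stage, sorting or litter in these differences was not tested, and with 1 library per pool name they cannot be told apart. Length was measured beside them. With the genes cut by exon length into 3 equal parts, from short to long, the median log2 difference of SF5_6 from the mean of the other pools was -0.03, -0.03 and -0.03, and 14.3%, 14.3% and 14.8% of genes had a CV of 25% or more.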

How the data were processed

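RNA from 3 control pools was measured by stranded mRNA sequencing. Per the submitters' processing notes and the labels' protocols, the authors mapped paired-end reads to GRCm38 with STAR 2.5.3a and estimated expression with RSEM 1.3.0 on GENCODE M15; DESeq2 1.18 is also named. The deposited table holds the authors' expected counts per gene, as whole numbers that were not scaled between libraries. RSEM divides reads that match several places by estimation, so near-identical copies are uncertain.

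From these counts CPM with TMM factors (0.982, 0.978 and 1.04 for SF3, SF4 and SF5_6) was computed over the control libraries alone with edgeR 4.0.16 in R 4.3.3, and the common dispersion with an intercept only. Log2 levels used a pseudocount of 0.5 CPM. Exon lengths came from GENCODE M21, the same build, with 21963 of 22027 protein-coding genes matched by ID. Where a symbol had several IDs (33 symbols), lists used the one with more counts. Promoters were matched by symbol to RefSeq for 16368 genes. All results are descriptions of 1 group, with no test and no p-value; the dispersion step was tested on simulated data.

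The members, gene lists and rules were chosen with earlier results of these data known. Named genes were the 20 highest by CPM and per kilobase, the 20 of highest and 10 of lowest CV at a mean of 10 CPM or more, the 4 genes nearest 1000 CPM, the sort and progenitor markers, Smad1 and Smad5, and of each list the 4 highest by mean, the 2 of highest CV and, for other cell types, members under 3 counts. Alternatives were library totals and DESeq2 1.42.0 size factors, other filters and thresholds, and leaving out each pool. Some list members are not reported here.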

Additional observations from a re-analysis of the deposited data

Results flagged for a closer look

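Some of the largest counts lay outside the protein-coding genes to which the description was limited, each far above the limit that a count of 0 allows. They are given as means over the 3 pools. Gm42418, annotated as a long noncoding RNA on chromosome 17, had 5494 CPM. The pseudogenes Gm10925 (3648 CPM), Gm28437 (3398 CPM) and Gm28661 (3376 CPM) are the copies identical to mt-Atp6, mt-Co3 and mt-Co2. Xist had 2251 CPM. The nuclear RNAs Miat and Malat1 had 1558 and 951 CPM, and 2900097C17Rik had 480.9 CPM.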

How the results depend on the processing

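No paired analysis was possible because the results come from no test and from 1 group. With library totals alone SF5_6 was the highest pool for 51.5% of genes and with DESeq2 size factors for 35.3%, against 34.3%; this share was 27.9% at a mean of 10 CPM or more, 38.4% with no filter, and 45.6% to 45.7% when SF3 or SF4 was left out and 2 pools remained. The pool with the highest sum kept its place under all 3 scalings for each list except Cajal-Retzius and preplate cells, translation factors, ribosomal proteins, RNA-binding proteins, glycolysis and Notch. The median CV was 11.8% with no filter and 4.94% to 8.79% with a pool left out. The number of genes with a CV of 25% or more was 639 at a mean of 10 CPM or more, 5511 with no filter and 720 to 2202 with a pool left out, and 542 passed 50%. Leaving out a pool gave a median absolute log2 difference of 0.098 to 0.17 and a common coefficient of 0.109 to 0.213, lowest without SF5_6. With mitochondrial genes left out, the top 20 by CPM kept 15 genes and the top 20 per kilobase kept 12. Of 212 named genes the mean CPM moved by more than 1 SD for 12 without SF3, 10 without SF4 and 13 without SF5_6, and for 0 under the other scalings. With 3 pools, leaving 1 out cannot alone move a mean by 1 SD, so widely spread genes cannot be among these. The counts therefore do not measure how far a level depends on 1 pool. Counting error is larger for genes of low counts. At 1 to 10 CPM Poisson counting gives a CV of 8.66%, beside a median CV of 18.9%.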

Other observations

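Some noncoding RNAs of imprinted regions were highest in SF5_6, as were their protein-coding neighbours Dlk1 and Igf2. Meg3, which lies in the same imprinted region as Dlk1, stood at 165 CPM in SF3, 150 CPM in SF4 and 313 CPM in SF5_6, and Rian, from the same region, at 131, 133 and 245 CPM. H19, the neighbour of Igf2, stood at 53.9, 38.3 and 90.2 CPM. Kcnq1ot1, the antisense RNA of another imprinted region, was close between pools at 137, 157 and 137 CPM. These genes were chosen after their values were seen.

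In all, 19 protein-coding genes, Gm10020 and Lin28a among them, were at 0 in at least 1 pool and at 1 CPM or more in another. Among the others, chosen after their values were seen, were patterning genes of thalamus and hypothalamus. Shox2 was counted 1 time in SF3, 0 times in SF4 and 460 times in SF5_6. Otp was counted 0, 1 and 386 times, Gbx2 2, 0 and 228 times, Nkx2-2 0, 0 and 65 times and Foxb1 0, 0 and 35 times. Gm28539 went the other way, with 128 counts in SF4 and 0 in the other pools.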
